A study of Mus musculus with 10 samples.

Results

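Follicular T cells enter B cell follicles under a set of genes that act together, and Foxp3-expressing regulatory T cells (Tregs), which restrain immune responses, can take up part of that set. The 8 genes described here are Bcl6, Tox, Tox2, Cxcr5, Sh2d1a, Slamf6, Izumo1r and Il21. They were chosen by name, with earlier results of these data known, and 8 of 23992 gene symbols in the deposited tables are members. Of these, 7 were found by symbol, and Izumo1r was found through its RefSeq accession because the tables list it under the older symbol Folr4.

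BCL6 is the transcriptional repressor that follicular helper and follicular regulatory T cells need, and Blimp-1, the product of Prdm1, opposes it. TOX and TOX2 are HMG-box DNA-binding proteins that favour the follicular helper fate and, in chronically stimulated CD8 T cells, the exhausted state. SAP, the product of Sh2d1a, is the adaptor that carries signals from SLAM family receptors such as SLAMF6, while CXCR5 is the chemokine receptor that leads cells into follicles and IL-21 is the cytokine that follicular helper cells give to B cells. Izumo1r encodes folate receptor 4, a surface protein that is abundant on Tregs.

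All cells came from C57BL/6J mice, and all measurements are RNA sequencing of bulk samples. In the first comparison, wild-type natural Tregs from spleen were stimulated in culture with anti-CD3 and anti-CD28 for 24 h, with thymic stromal lymphopoietin (TCR + TSLP, 2 libraries) or without it (TCR, 2 libraries). TSLP is an epithelial cytokine whose receptor joins the products of Crlf2 and Il7r and signals to STAT5. In the second comparison, Tregs were isolated from the allergic lungs of OVA-immunized mice that were Crlf2fl/fl Foxp3YFP-Cre (Crlf2-deleted, labelled conditional Knock-out, 3 libraries) or Foxp3YFP-Cre alone (control, labelled wild-type, 3 libraries). Both lung groups therefore carry the Cre allele, which is driven from Foxp3. Separate animals or cultures are not named for the libraries, and a p-value here covers only the spread between libraries, which may be technical.

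Levels are given as normalised reads (CPM after TMM scaling for composition within a comparison), and levels of different genes are compared as RPKM. Reads assigned to genes ranged from 34852312 to 51671903 in TCR + TSLP libraries and from 27237312 to 27866035 in TCR libraries. They ranged from 9647689 to 18349039 in Crlf2-deleted libraries and from 1439675 to 12179227 in control libraries. Crlf2 stood at 3.55 to 9.06 normalised reads in Crlf2-deleted lung Tregs and at 92.8 to 146 in control lung Tregs. Foxp3 was present in every library, at 134 to 148 with TSLP and 157 to 179 without it, and at 386 to 490 in Crlf2-deleted and 200.1 to 474 in control lung Tregs.

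Control lung library 3 stood apart. The summed level of 10 B cell markers, all of which had reads, was 18.1 to 30.8 normalised reads in the Crlf2-deleted libraries and 21.5, 26.0 and 420 in control libraries 1, 2 and 3. The summed myeloid markers were 1061 to 1080 in the Crlf2-deleted libraries, 430 and 549 in 2 control libraries and 4629 in control library 3, where Foxp3 was also the lowest of the lung libraries. Summed erythroid markers reached 62398 there, against 697 to 1009 in the Crlf2-deleted libraries. Lung epithelial markers, which Tregs lack, had reads in all lung libraries, with sums of 2292 to 18065 in Crlf2-deleted and 16545 to 79222 in control libraries. The 6 ILC2 markers summed to 1971 to 2648 in Crlf2-deleted and 841 to 1515 in control libraries. Tregs also express some of these markers, such as Gata3, Rora and Klrg1. The members' lung values are therefore given with and without that library, and the part of these other cells in it was not tested unless a value is given. In bulk samples, fewer cells of a type and less RNA per cell cannot be told apart.

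Bcl6 (chr16:23965050-23988866, minus strand, mm10) passed the test as lower in both comparisons, and no other of the 8 genes did. In lung Tregs it stood at 19.2, 20.3 and 18.2 normalised reads in Crlf2-deleted libraries, against 35.4, 42.4 and 43.5 in control libraries. The groups did not overlap, and every Crlf2-deleted library lay near the others. Bcl6 was 2.10-fold lower in Crlf2-deleted Tregs (19.2 ± 1.04 against 40.5 ± 4.38, SD, n = 3 each). By edgeR's quasi-likelihood test this was a log2 fold change of -1.07 with an SE of 0.19 (adjusted p = 0.0377). Without control library 3 it was -1.0 (adjusted p = 0.0461), with B cell marker sums then overlapping between the groups. The call was lost when any of the other 5 libraries was left out (adjusted p from 0.0616 to 0.230), although the log2 fold change stayed between -1.16 and -1.0 in all 6 such fits. It was also lost with library totals as the scaling (adjusted p = 0.0737), with limma on RPKM (0.108) and after removal of a trend on transcript length, without or with GC content (0.0587 and 0.0659), and held in 7 of 17 alternative fits.

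In spleen Tregs, whose libraries were scaled apart from those of lung, Bcl6 was low in level. It stood at 2.92 and 3.10 normalised reads with TSLP and at 6.66 and 7.82 without it, a group mean of 3.01 ± 0.13 against 7.24 ± 0.82 (SD, n = 2 each). The fall of 2.40-fold (log2 fold change -1.26, SE 0.18, adjusted p = 0.00119, edgeR) rests on 284 summed reads with TSLP and 368 without it. Its direction and call held in all 14 alternative fits in which it was tested. B cells express Bcl6, and the summed B cell markers were 113 and 120 normalised reads with TSLP, against 160 and 149 without it. Of the 9 markers tested, 4 passed as lower, Cd79b and Pax5 among them, and 5 did not pass, such as Ms4a1 at 0.22 on the log2 scale. Sums of the 2 CD8 T cell markers were 19.6 and 20.4 with TSLP, against 33.0 to 34.0 without it. The part of these cells in the fall of Bcl6 was not tested.

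The sequences before the start sites of Bcl6 are shown because STAT5, which TSLP activates, is known to act at the Bcl6 gene. RefSeq (GRCm38.p6, the same assembly as mm10) lists start-site windows for 5 of the 8 members, 10 windows in all, of which 2 are of Bcl6. Capitals mark TTCNNNGAA, the palindrome that STAT proteins recognise, which reads the same on both strands. The first window, chr16:23988853-23989102, is the 250 bases before the start of the first exon, and the second, chr16:23981284-23981533, lies in the intron between exons 1 and 2. Both are printed 5′ to 3′ on the minus strand.
Bcl6 first exon: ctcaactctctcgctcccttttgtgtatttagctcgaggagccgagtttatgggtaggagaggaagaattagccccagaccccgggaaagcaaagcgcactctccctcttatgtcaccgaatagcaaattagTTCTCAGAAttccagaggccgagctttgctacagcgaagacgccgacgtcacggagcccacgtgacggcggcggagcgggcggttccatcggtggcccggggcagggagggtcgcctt
Bcl6 intron start: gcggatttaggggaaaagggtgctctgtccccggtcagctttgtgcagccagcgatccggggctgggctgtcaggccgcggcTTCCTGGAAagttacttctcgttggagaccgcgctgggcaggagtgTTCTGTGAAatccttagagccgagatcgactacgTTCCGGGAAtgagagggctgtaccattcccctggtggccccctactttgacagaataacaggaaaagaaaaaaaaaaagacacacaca

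The first-exon window holds the palindrome once, at position -118 from the start site. The intron window holds it 3 times, at -168, -122 and -88. Of 32851 windows of the same length, 7.02% hold it at least once and 0.0274% (9 windows) hold it at least 3 times. None of the other 8 windows of members holds it. A match of letters is a description of the sequence and not of binding. Whether STAT5 had a part in the lower Bcl6 of either comparison was not tested.

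Blimp-1 opposes BCL6, so Prdm1 was read beside it. Prdm1 had 13.2 ± 0.73 normalised reads with TSLP and 9.98 ± 0.96 without it (n = 2 each), and passed with a log2 fold change of 0.41 and an SE of 0.13 (adjusted p = 0.0352, edgeR). In lung Tregs it had 132 ± 11.9 in Crlf2-deleted and 94.4 ± 15.7 in control libraries (n = 3 each, log2 0.48, adjusted p = 0.191; 0.35 and 0.242 without control library 3, edgeR). The ratio of the 2 genes within a library needs no scaling between libraries. The log2 ratio of Bcl6 to Prdm1, both as RPKM, was -1.47 and -1.5 in TCR + TSLP libraries, against 0.17 and 0.20 in TCR libraries, a difference of -1.67. It was -2.24, -1.90 and -2.24 in Crlf2-deleted lung Tregs, against -0.97, -0.55 and -0.19 in control lung Tregs, a difference of -1.56. Groups did not overlap in either comparison. The exact two-sided permutation p was 0.333 in spleen and 0.10 in lung, the smallest that 2 against 2 and 3 against 3 libraries allow. Control library 3 had the highest lung ratio, and without it the difference was -1.37.

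**Figure D1:**
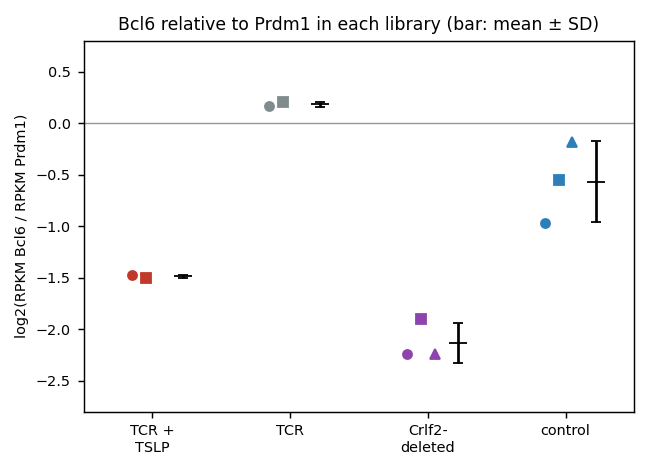
The log2 ratio of Bcl6 to Prdm1 (RPKM over RPKM, vertical axis) in each of the 10 libraries, by group, with the mean and SD beside the points (circle, square and triangle for libraries 1, 2 and 3). Both TCR + TSLP libraries lie below both TCR libraries, and all 3 Crlf2-deleted libraries lie below all 3 control libraries.

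Of the TOX factors, Tox2 passed in the lung comparison. Tox2 (chr2:163203058-163324172, plus strand) had 96.5, 80.3 and 120 normalised reads in Crlf2-deleted lung Tregs, against 38.5, 38.3 and 22.3 in control lung Tregs. Every Crlf2-deleted library was above every control library, and control library 3 was the lowest. Tox2 was 3.05-fold higher in Crlf2-deleted Tregs (98.9 ± 19.95 against 33.1 ± 9.29, n = 3 each). On the log2 scale this was a rise of 1.61 with an SE of 0.25 (adjusted p = 0.0268, edgeR). Without control library 3 it was 1.37 (adjusted p = 0.0120). The call was lost without control library 1 or 2 (adjusted p = 0.0608 and 0.0662) and without Crlf2-deleted library 1 or 3 (0.170 and 0.167), with log2 fold changes from 1.44 to 1.79. It was also lost after removal of a trend on transcript length, without or with GC content (adjusted p = 0.0542 and 0.0702), and held in 10 of 17 alternative fits.

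In spleen Tregs Tox2 was barely detected. It had 22 and 44 reads in TCR + TSLP libraries and 26 and 16 reads in TCR libraries, or 0.59 and 0.78 normalised reads against 1.01 and 0.64. These values overlap, and no difference was detectable at this depth (log2 fold change -0.25, SE 0.40, adjusted p = 0.632, edgeR). Tox2 RPKM was 13.6 ± 3.71 in Crlf2-deleted and 3.30 ± 0.67 in control lung Tregs, with 0.20 ± 0.040 and 0.18 ± 0.043 in TCR + TSLP and TCR cultures.

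Tox (chr4:6686353-6991557, minus strand) was present in all groups and passed in neither comparison in the main test. It had 85.8, 95.8 and 70.4 normalised reads in Crlf2-deleted lung Tregs, against 76.5, 56.8 and 52.9 in control lung Tregs. In normalised reads the groups overlapped (log2 fold change 0.43, SE 0.19, adjusted p = 0.329, edgeR; 0.31 without control library 3). As RPKM they did not, at 6.08 to 7.24 in Crlf2-deleted against 3.02 to 4.50 in control lung Tregs. Nor did they as CPM per kilobase over reads assigned to genes, at 25.8 to 36.2 against 16.1 to 25.2. With TSLP it had 21.9 and 22.6 normalised reads, against 16 and 19.6 without it, values that do not overlap but fell short of the threshold (log2 fold change 0.32, SE 0.12, adjusted p = 0.0653). Its sign was positive in all 15 alternative fits of the TSLP comparison and in all 17 of the lung comparison. Tox passed in 4 of these with TSLP and in 1 in lung. Of the rest of the family, Tox3 had too few reads for the test, while Tox4 had 150 ± 2.49 normalised reads with TSLP and 116 ± 2.11 without it (log2 0.36, adjusted p = 0.00929) and did not pass in lung (log2 0.14, adjusted p = 0.669; 0.11 and 0.756 without control library 3).

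**Figure D2:**
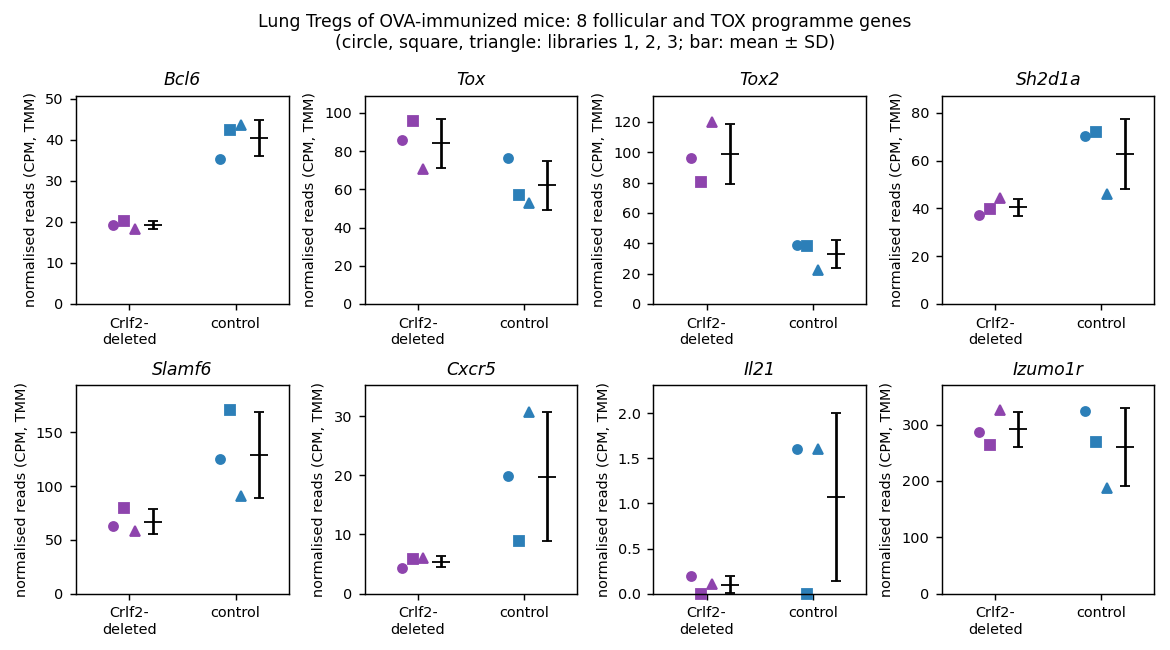
Normalised reads (vertical axis, from 0) of the 8 genes in each lung Treg library, Crlf2-deleted at the left and control at the right, with mean and SD. All Crlf2-deleted libraries lie above the control libraries for Tox2 and below them for Bcl6, Cxcr5, Sh2d1a and Slamf6, while Tox, Izumo1r and Il21 overlap.

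Slamf6 (chr1:171917458-171948958, plus strand) had log2 fold changes of opposite sign in the 2 comparisons, and with all libraries the rise with TSLP passed. With TSLP it had 51.3 and 52.1 normalised reads, against 32.7 and 37.5 without it. The 2 groups lay well apart, a rise of 1.47-fold (51.7 ± 0.59 against 35.1 ± 3.42, n = 2 each). On the log2 scale the rise was 0.56 with an SE of 0.10 (adjusted p = 0.00361, edgeR), and the call held in 14 of 15 alternative fits. In lung Tregs it had 63.3, 79.9 and 58.1 normalised reads in Crlf2-deleted libraries, against 125, 170 and 90.5 in control libraries. Groups did not overlap, and control library 3 was the lowest control. By edgeR the log2 fold change was -0.92 with an SE of 0.24 (adjusted p = 0.104) and, without control library 3, -1.12 (adjusted p = 0.0181).

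Sh2d1a (chrX:42502565-42522097, plus strand), which encodes the adaptor SAP, was also lower in value in Crlf2-deleted lung Tregs. It had 37.4, 39.6 and 44.2 normalised reads in Crlf2-deleted libraries, against 70.5, 71.8 and 46.0 in control libraries. The 2 control libraries with few B cell markers stood far above the Crlf2-deleted ones, and control library 3 lay just above them. By edgeR it was -0.62 on the log2 scale (SE 0.21, adjusted p = 0.188) with all libraries and -0.81 (adjusted p = 0.0401) without control library 3. With TSLP it had 33.6 and 31.6 normalised reads, against 29.4 and 31.4 without it, a value of 0.10 on the log2 scale (SE 0.098, adjusted p = 0.432). Its transcript is the shortest of the 8, at 819 bases. After a trend of fold change on transcript length was removed, the value was 0.72 (adjusted p = 0.00152).

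Because control library 3 held less T cell RNA, the members were also set against T cell genes of the same library, a choice made after the data were seen. The unit is reads per 1000 summed reads of 7 genes (Cd2, Cd3d, Cd3e, Cd3g, Cd4, Cd5 and Lck). All 7 had higher means in Crlf2-deleted than in control libraries, from 0.018 (Cd5) to 0.55 (Cd4) on the log2 scale, none past the threshold. The unit therefore lowers all members in the Crlf2-deleted group relative to control. On this scale Sh2d1a stood at 7.40, 8.62 and 8.16 in Crlf2-deleted lung Tregs, against 15.7, 15.5 and 14.9 in control lung Tregs. Slamf6 stood at 12.5, 17.4 and 10.7 in Crlf2-deleted lung Tregs, against 28.0, 36.7 and 29.4 in control lung Tregs. Control library 3 then lay among the other controls for both genes. Tox2 stood at 19.1, 17.5 and 22.1 in Crlf2-deleted libraries, against 8.60, 8.24 and 7.24 in control libraries. Bcl6 kept its gap, at 3.35 to 4.40 in Crlf2-deleted libraries, against 7.91 to 14.1 in control libraries, the highest being control library 3. The 5 members that did not overlap on the first scale did not overlap on this one, and Tox and Izumo1r overlapped on both. Of all genes tested, 26.2% did not overlap on this scale. Not all of these gaps held on other scales. As RPKM, Sh2d1a ranged from 10.2 to 13.3 in Crlf2-deleted and from 10.8 to 14.4 in control lung Tregs, which overlap. As CPM per kilobase over reads assigned to genes, Sh2d1a also overlapped, at 48.6 to 56.4 against 48.7 to 89.1. Slamf6 did too on that scale, at 24.8 to 35.3 against 32.2 to 70.8.

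Cxcr5 (chr9:44511787-44526444, minus strand) varied widely among control libraries. It had 4.28, 5.85 and 5.95 normalised reads in Crlf2-deleted lung Tregs, against 19.8, 8.89 and 30.7 in control lung Tregs. All Crlf2-deleted libraries were lower, but the control libraries spread over a wide range, and the highest was the library with the B cell markers. B cells express Cxcr5. The log2 fold change of -1.92 (SE 0.45, adjusted p = 0.0826, edgeR) did not pass and was -1.47 (adjusted p = 0.111) without control library 3. The value of control library 2 rests on 13 reads. In spleen it had 6.13 and 6.91 normalised reads with TSLP, against 7.59 and 7.78 without it (log2 fold change -0.23, SE 0.15, adjusted p = 0.237).

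Il21 (chr3:37222759-37232636, minus strand) was low in every group and near the limit of detection in lung Tregs. With TSLP it had 86 and 116 reads, against 21 and 28 without it, which is 2.30 and 2.06 normalised reads against 0.81 and 1.12. Both TCR + TSLP libraries were higher, a rise of 2.2-fold (log2 fold change 1.17, SE 0.30, adjusted p = 0.0140, edgeR). The call was lost without TCR + TSLP library 1 or 2 (log2 1.09 and 1.25) and with all 4 groups in 1 fit (log2 1.21, adjusted p = 0.555). It held in 11 of 14 alternative fits. In lung Tregs Il21 had 2, 0 and 2 reads in Crlf2-deleted libraries, against 12, 0 and 17 in control libraries, too few for the test. The libraries with 0 reads allow up to 0.240 normalised reads in Crlf2-deleted library 2 and up to 2.05 in control library 2. The 4 reads of the Crlf2-deleted group and 29 of the control group gave a ratio of 0.0642 (exact 95% interval 0.0164 to 0.183, counting error only), and 17 of the 29 came from control library 3.

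Izumo1r (chr9:14885814-14903951, minus strand) was by RPKM the highest of the 8 genes in every group. Its main transcript model had 384 and 373 normalised reads with TSLP, against 517 and 509 without it. The groups were tight and apart, a fall of 1.36-fold (378 ± 7.51 against 513 ± 5.17, n = 2 each). On the log2 scale this was -0.44 with an SE of 0.083 (adjusted p = 0.00398, edgeR). The call depended on the processing. The fall did not pass when scaled by library totals alone (log2 -0.21, adjusted p = 0.0522) or with limma on RPKM (log2 -0.068, adjusted p = 0.706). With all 4 groups in 1 fit it did not pass either (log2 -0.40, adjusted p = 0.286). It also did not pass after removal of a trend on transcript length (log2 -0.12, adjusted p = 0.238), and with GC content added the value was 0.01 (adjusted p = 0.898). With 1 library left out, the log2 fold change of Izumo1r lay between -0.46 and -0.42. In lung Tregs it had 287, 264 and 325 normalised reads in Crlf2-deleted libraries, against 324, 268 and 188 in control libraries, which overlap (log2 0.17, SE 0.20, adjusted p = 0.737; -0.024 without control library 3).

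The tables hold a second Izumo1r model that shares exons 1 to 4 with the main one and ends elsewhere. The main model ends in a near last exon (chr9:14900023-14900624), the other in a distant one (chr9:14885814-14886344). Reads of the distant model went the opposite way to the main one, at 120 and 128 normalised reads with TSLP, against 77.1 and 101 without it (log2 fold change 0.47, SE 0.13, adjusted p = 0.0200, edgeR). Its reads were 31.2% and 34.4% of those of the near model with TSLP, against 14.9% and 19.9% without it. Those shares did not overlap, and the exact two-sided permutation p of 0.333 is the smallest that 2 against 2 libraries allow. In lung Tregs the share was 53.4% to 55.4% in Crlf2-deleted libraries and 52.3% to 54.8% in control libraries, a difference of 0.95 percentage points (exact permutation p = 0.50). The sources used here do not give whether reads in the shared exons count for both models, and the share is therefore not one of transcripts. Whether coverage along the gene differed was not tested. Folr1 and Folr2, of the same family, had too few reads for the test. Izumo1, the sperm protein that the IZUMO1R protein binds, was at 0.31 ± 0.16 normalised reads with TSLP and 0.27 ± 0.11 without it (adjusted p = 0.898).

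**Figure D3:**
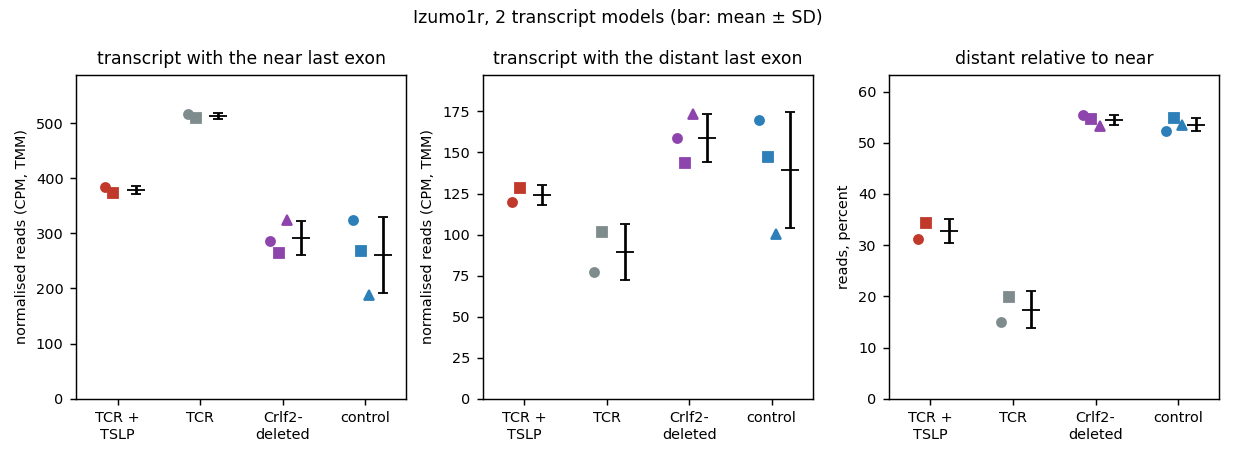
Normalised reads of the 2 Izumo1r transcript models and the reads of the distant model as a percentage of those of the near model (vertical axes, from 0) in each library, by group, with mean and SD; spleen and lung libraries were scaled separately. With TSLP the near model is lower and the distant one higher than without it, so that the percentage lies between 31.2 and 34.4 against 14.9 to 19.9, while all lung libraries lie between 52.3 and 55.4.

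Across the 8 genes, the TSLP comparison gave 2 higher (Slamf6 and Il21) and 2 lower (Bcl6 and Izumo1r), with 4 that did not pass. That is close to the background of all genes, of which 45.8% of 13214 passed, 22.7% higher and 23.1% lower. With library totals as the only scaling, 5059 genes were higher and 2000 lower, against 2999 and 3051 here, and the median of all genes moved by 0.24 on the log2 scale. With limma on RPKM the split was 5679 and 1249. Values of 7 of the 8 members did not overlap between groups, and neither did those of 75.4% of all genes tested. The median log2 fold change was -0.07 over the members and 0.01 over all genes.

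**Figure D4:**
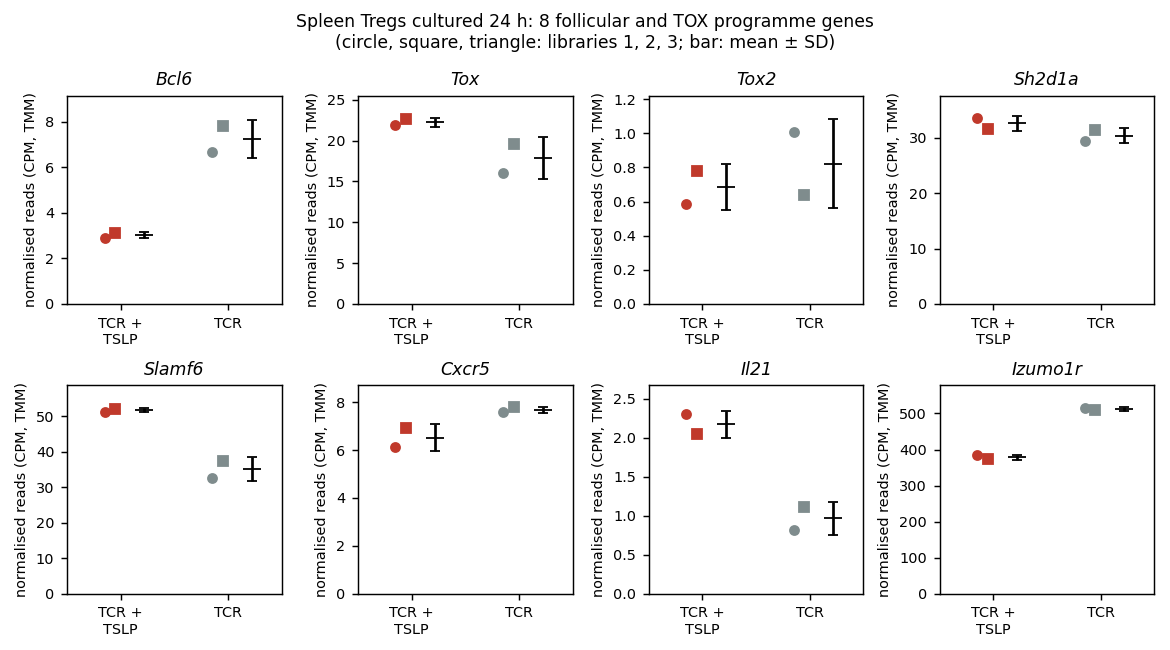
Normalised reads (vertical axis, from 0) of the 8 genes in each spleen culture, TCR + TSLP at the left and TCR at the right, with mean and SD. Slamf6 and Il21 are higher and Bcl6 and Izumo1r lower with TSLP, and only Tox2 overlaps.

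In the lung comparison 1 of 7 tested members was higher (Tox2) and 1 was lower (Bcl6). Of all 12717 genes tested, 1.79% passed, 0.771% higher and 1.01% lower. There were 98 higher and 129 lower genes, against 137 and 57 with library totals as the only scaling and 762 and 94 with limma on RPKM. Without control library 3, 4 of the 7 passed (Tox2 higher, Bcl6, Sh2d1a and Slamf6 lower), and 4.11% of 12931 genes did. With all 4 groups in 1 fit, which estimates the spread from 10 libraries, Tox2 was again higher and Bcl6, Cxcr5 and Slamf6 were lower, with 6.04% of 14445 genes passing. After removal of a length trend 0 of the 7 passed, and 0.755% of all genes did. Leaving out any 1 library other than control library 3 gave 0 or 1 higher member and 0 lower. Normalised reads of 5 of the 7 members did not overlap between groups, where those of 22.0% of all genes tested did not. The median log2 fold change was -0.62 over the members and -0.04 over all genes.

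**Figure D5:**
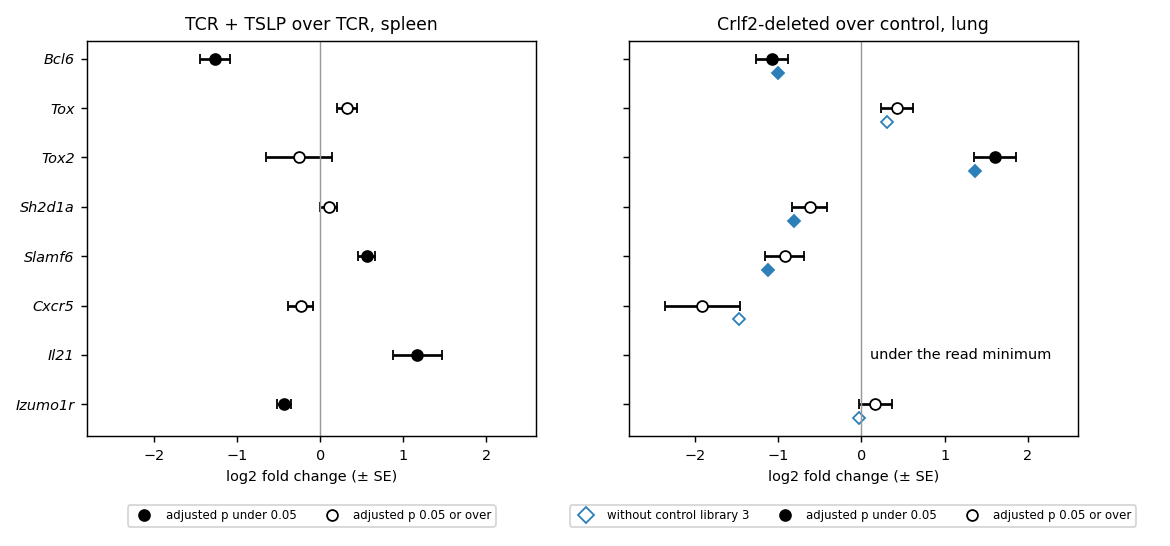
Log2 fold changes with their SE (horizontal axes, 0 at the grey line) of the 8 genes for TCR + TSLP over TCR and for Crlf2-deleted over control, from edgeR; filled symbols passed at an adjusted p under 0.05, and blue diamonds leave out control library 3. Bcl6 lies left of 0 in both, Slamf6 lies right of 0 with TSLP and left of 0 in lung, and Tox2 lies farthest right in lung.

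Other genes of the pathway were read from lists that were chosen with earlier results of these data known. Their counts with TSLP stand beside the 45.8% of all genes that passed, and their lung counts beside 1.79%. Because of that choice, a count above the share of all genes is a description only. Of the 14 list genes other than members that passed in lung, 13 also passed without control library 3, with the same sign (adjusted p from 0.00173 to 0.0330, edgeR). The other was Rgs16 (log2 1.53, adjusted p = 0.0533). Of 10 tested SLAM receptors and SAP adaptors, 6 rose and 1 fell with TSLP, Slamf6 among them. Slamf1, a receptor that binds its own kind on other cells, had 55.5 ± 4.72 normalised reads with TSLP and 33.7 ± 5.48 without it (log2 0.72, adjusted p = 0.00328). Slamf7 had 39.8 ± 0.19 and 26.5 ± 3.22 (log2 0.59), and Cd84 had 30.4 ± 0.77 and 21.5 ± 0.70 (log2 0.50), with and without TSLP. Slamf9 was the one that fell, at 0.27 ± 0.074 with TSLP and 1.0 ± 0.063 without it. The median over the list was 0.30, beside 0.01 over all genes. Leaving out 1 library gave 3 to 9 that passed with TSLP, and all 4 groups in 1 fit gave 0. In lung none of 12 tested genes of this list passed with edgeR and all libraries, and 2 did, both members (Sh2d1a and Slamf6), without control library 3, and leaving out other libraries gave 0. Of the others, Cd48 was at 164 ± 14.9 in Crlf2-deleted and 213 ± 26.7 in control Tregs (adjusted p = 0.228), and Fyn, the kinase that SAP recruits, at 154 ± 16.2 and 106 ± 25.2 (adjusted p = 0.199).

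Factors listed as inducing BCL6 or acting with it moved with TSLP in both directions. Of 23 tested, 9 rose and 4 fell, with a median log2 fold change of 0.17. Tcf7, whose product TCF-1 promotes Bcl6 expression, had 176 ± 12.7 normalised reads with TSLP and 96.6 ± 12.4 without it (log2 0.87, adjusted p = 0.000745). Irf4 had 920 ± 27.7 and 522 ± 4.59 (log2 0.82) and Tcf12, an E protein gene, 49.9 ± 3.49 and 23.9 ± 2.44 (log2 1.06), with and without TSLP. Foxp1, which is in this list although it restrains the follicular helper fate, fell to 150 ± 1.5 with TSLP, against 294 ± 48.2 without it (log2 -0.97, adjusted p = 0.000576). The 4 that fell are therefore not all inducers or partners. Leaving out 1 library gave 8 to 19 that passed, and all 4 groups in 1 fit gave 5. In lung 0 of 21 tested were higher and 1 was lower with edgeR (median -0.10), 1 passed without control library 3, and leaving out other libraries gave 0 to 1.

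Opponents of BCL6 and genes it is known to repress gave 10 higher and 4 lower of 19 tested with TSLP (median 0.26). Those that passed at the smallest p were the cytokine receptor genes Il2rb (605 ± 45.1 with and 333 ± 0.31 without TSLP, log2 0.86), Il7r (58.1 ± 1.97 and 27.9 ± 3.86, log2 1.06) and Il2ra (log2 0.63), all higher, and the trafficking regulator Klf2 (56.3 ± 1.75 and 89.3 ± 7.08, log2 -0.67). With 1 library left out 6 to 16 passed, and all 4 groups in 1 fit gave 3. In lung 2 of 20 were higher and 2 lower (median -0.25). Il7r, the partner of Crlf2 in the TSLP receptor, was at 294 ± 29.8 in Crlf2-deleted and 121 ± 25.2 in control Tregs (log2 1.29, adjusted p = 0.0161). Id2, an inhibitor of E proteins, was at 708 ± 86.2 and 333 ± 52.5 (log2 1.09, adjusted p = 0.0181). Gpr183, the EBI2 receptor that holds cells at the follicle's outer edge, fell to 67.2 ± 2.39 in Crlf2-deleted Tregs, against 138 ± 12.5 in control Tregs (log2 -1.04, adjusted p = 0.0143). Without control library 3, 5 of the list passed, while leaving out other libraries gave 0 to 3, with 0 without control library 1 and without Crlf2-deleted library 1 or 3.

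Surface and secreted genes of follicular helper cells gave 10 higher and 3 lower of 24 tested with TSLP (median 0.23). Cd40lg, the ligand by which helper cells license B cells, had 13.7 ± 1.22 normalised reads with TSLP and 5.25 ± 1.61 without it (log2 1.39, adjusted p = 0.00129). Il4 had 39.1 ± 2.33 and 17.9 ± 0.73 (log2 1.13), Tigit 45.0 ± 0.24 and 21.6 ± 0.52 (log2 1.06) and Cd200 138 ± 1.55 and 77.4 ± 10.4 (log2 0.83). The count was 6 to 20 with 1 library left out, and all 4 groups in 1 fit gave 3. In lung 2 of 22 were higher and 1 lower (median -0.02). Pdcd1, the gene of the inhibitory receptor PD-1, had a mean of 1218 in Crlf2-deleted and 312 in control Tregs (log2 1.97, adjusted p = 0.0354). Tigit was at 360.2 ± 22.0 and 170.4 ± 52.1 (log2 1.09, adjusted p = 0.0475). Il6st, the shared receptor chain of IL-6 family cytokines, fell to 51.7 ± 10.4 in Crlf2-deleted Tregs, against 123 ± 18.4 in control Tregs (log2 -1.26, adjusted p = 0.0242). Without control library 3, 7 of the list passed, and leaving out other libraries gave 0 to 1.

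Genes reported in follicular regulatory cells gave 5 higher and 0 lower of 15 tested with TSLP (edgeR, median 0.17). Gzmb (log2 0.82, adjusted p = 0.00379) and Il10 (log2 0.58, adjusted p = 0.00767) were among them. That 5 of 15 is a smaller share than that of all genes. With 1 library left out 1 to 9 passed, and library totals gave 9, limma on RPKM 12 and all 4 groups in 1 fit 1. In lung 2 of 15 were higher and 2 lower, 5 passed without control library 3, and leaving out other libraries gave 0 to 4. Il10, the suppressive cytokine, was at 200.2 ± 17.4 normalised reads in Crlf2-deleted and 43.1 ± 18.4 in control Tregs (log2 2.27, adjusted p = 0.0160), and Fgl2, a secreted suppressor, at 1089 ± 147 and 331 ± 64.4 (log2 1.72, adjusted p = 0.00762). Gzmb, encoding granzyme B, fell to 69.2 ± 12.1 in Crlf2-deleted Tregs, against 204 ± 15.9 in control Tregs (log2 -1.56, adjusted p = 0.00762). Cd274, which encodes PD-L1, was at 49.9 ± 13.2 and 102 ± 6.93 (log2 -1.04, adjusted p = 0.0459).

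The inhibitory receptors and other genes of the TOX-driven exhaustion programme moved both ways with TSLP. Of 18 tested, 4 rose and 4 fell (median 0.10). Lag3 fell to 250.1 ± 5.45 normalised reads with TSLP, against 492 ± 33.0 without it (log2 -0.98, adjusted p = 0.000215), and Cd160 to 5.42 ± 0.025, against 20.4 ± 0.45 (log2 -1.91, adjusted p = 0.000159). Kat7, the acetyltransferase that TOX is reported to bind, had 84.6 ± 5.40 with and 53.4 ± 1.83 without TSLP (log2 0.66). The count was 6 to 13 with 1 library left out, and all 4 groups in 1 fit gave 3. In lung 4 of 18 were higher and 0 lower (edgeR, median 0.18). Besides Pdcd1 and Tigit these were Lag3 (304 ± 36.5 in Crlf2-deleted and 72.4 ± 11.4 in control Tregs, log2 2.08, adjusted p = 0.00465) and Rgs16 (132 ± 46.8 and 46.6 ± 11.9, log2 1.54, adjusted p = 0.0484). Without control library 3, 3 of the list passed, and leaving out other libraries gave 1 to 2.

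Levels per transcript length place the 8 genes in order. By RPKM, Izumo1r led in all 4 groups, at 138 ± 1.70 with TSLP and 145 ± 10.3 without it, values that overlap. It stood at 51.2 ± 9.07 in Crlf2-deleted and 33.4 ± 7.28 in control lung Tregs, which do not overlap as RPKM although the normalised reads do. Sh2d1a came next in 3 groups, at 19.1 ± 0.65, 13.8 ± 1.76 and 12.9 ± 1.87 in TCR + TSLP, TCR and control lung Tregs. In Crlf2-deleted lung Tregs Tox2 took that place at 13.6 ± 3.71, with Sh2d1a at 11.3 ± 1.72, a gap smaller than their spread. Il21 was the lowest in 3 groups and Tox2 in TCR + TSLP cultures. Between groups, Bcl6 RPKM was lowest in TCR + TSLP cultures (0.44 ± 0.022), then TCR cultures (0.82 ± 0.16), Crlf2-deleted lung Tregs (1.33 ± 0.027) and control lung Tregs (2.11 ± 0.39), and no neighbours in that order overlapped. The order was the same when levels were taken as CPM per kilobase over reads assigned to genes. Izumo1r also kept its order on both scales, with both cultures above both lung groups. For Sh2d1a, Tox, Slamf6, Cxcr5 and Il21, the order or the overlap of spleen and lung groups depends on that choice. Tox RPKM was 6.69 ± 0.58 in Crlf2-deleted and 3.70 ± 0.75 in control lung Tregs, with 3.74 ± 0.12 in TCR + TSLP and 2.33 ± 0.52 in TCR cultures, but as CPM per kilobase both lung groups lay above both cultures, at 31.3 and 20.5 against 8.45 and 5.77. Slamf6 RPKM was highest in TCR + TSLP cultures (10.1 ± 0.19), overlapping control lung Tregs (8.77 ± 1.73), but as CPM per kilobase it was 22.9 in TCR + TSLP cultures, below 29.2 in Crlf2-deleted and 50.4 in control lung Tregs. Cxcr5 was lowest in Crlf2-deleted lung Tregs on both scales (RPKM 0.47 ± 0.097). As RPKM the other groups overlapped, at 1.20 ± 0.11 with TSLP, 1.09 ± 0.11 without it and 1.35 ± 0.87 in control lung Tregs, but as CPM per kilobase control lung Tregs, at 6.91, lay above both cultures, at 2.70 with TSLP and 2.71 without it. Spleen and lung cells differ in tissue, culture, immunization and the Foxp3YFP-Cre allele, and perhaps in library kit. These cannot be told apart, so no test was made between spleen and lung.

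The genes most like each member in pattern were those with the highest Pearson correlation of log2 CPM over the 10 libraries, among 8617 symbols. Since lung and spleen libraries form separate sets, these values mostly follow the step between tissues and are a description. For Bcl6 they were Cd7, Cope and Pyhin1 (r from 0.975 to 0.980), and for Tox they were Plcxd2, Mppe1 and Ankrd10 (0.986 to 0.987). Laptm5, Klrg1 and Rnu11 were most like Tox2 (0.996 for each). H2-Ob, a gene of the MHC class II pathway, led for Cxcr5 at 0.917, before Abi3 (0.901) and Stoml1 (0.896). Lrba was among the 3 most alike both for Sh2d1a (0.929, with Actg1 and Serpina3g) and for Slamf6 (0.951, after Lgals9 at 0.959 and Ifit2 at 0.952). Mlf2, Mrps23 and Fkbp1a were most like Izumo1r (0.982 to 0.986), and Znhit3, Retsat and Nek6 most like Il21 (0.958 to 0.972). No member was among the 3 most alike of another.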

How the data were processed

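RNA sequencing covered 10 libraries in 4 groups, which follow the sample titles. Per the labels' protocols, 100 to 500 ng of RNA went into each library, TruSeq Stranded Total RNA with Ribo-Zero served for TCR-stimulated Tregs, and reads were 50 bp single ends; for lung Tregs no kit is named in the sources used here. Each deposited file gives whole read counts for 31682 RefSeq transcripts. The deposited RPKM values were scaled by the authors to a library total of which the reads used here are 14.9% to 44.5%. Transcript lengths are as deposited. The submitters' processing notes name mm10, edgeR, bedtools 2.25.0, SAMtools 0.1.8, TopHat2 2.2.1 and Bowtie2 2.2.6; they give no strand rule and no counter.

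For each symbol, 1 transcript was used, that with the most reads on average. The main test was edgeR 4.0.16 (R 4.3.3) on the counts (quasi-likelihood, TMM, filterByExpr with a minimum count of 10, robust, two-sided) within each comparison, and adjusted by Benjamini-Hochberg over all genes at 0.05. Every adjusted p is from this test unless another is named. The script was tested on simulated data. Replicates differed by more than sampling noise (chi-square per degree of freedom 6.09 to 172).

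The 8 members and the lists were chosen with earlier results of these data known. Of each other list, up to 4 genes per comparison with the smallest p among those that passed are named (up to 2 where none passed), and for each member the 3 most alike genes. The results of 2 genes that this rule named are not reported here. Alternatives were library totals, median-of-ratios, DESeq2 1.42.0, limma 3.58.1 on log2(RPKM + 1), no filter, a mean RPKM of at least 1, the replicate number as a block, all 4 groups in 1 fit, removal of loess trends (span 0.3) on length and GC, the longest transcript and each library left out in turn. The alternatives chosen after seeing the data were the other Izumo1r model, a crossed block and the T cell gene ratio. Promoter sequences are RefSeq's, GRCm38.p6.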

Additional observations from a re-analysis of the deposited data

How the results depend on the processing

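The Bcl6 fall and the Slamf6 rise with TSLP kept their direction in every alternative in which they were tested. With TSLP, 2 members were higher and 2 lower; library totals and limma on RPKM each gave 4 higher and 1 lower, a mean RPKM of at least 1 gave 1 and 1, all 4 groups in 1 fit 0 higher and 1 lower (1356 genes), and removal of length trends, with or without GC, gave 1 lower. Leaving out 1 library gave 1 to 3 higher and 1 to 2 lower among 3212 to 8624 genes. In lung, 1 member was higher and 1 lower among 227 genes. Library totals gave 0 lower, DESeq2 3 lower (942 genes), limma on RPKM 2 higher and 0 lower (856), all 4 groups in 1 fit 3 lower (873), and removal of length trends 0 and 0 (96 genes, 94 with GC). Leaving out 1 library gave 0 to 1 higher and 0 to 3 lower among 4 to 532 genes. The Bcl6 to Prdm1 difference lay between -1.69 and -1.65 with TSLP and between -1.76 and -1.37 in lung.

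Values that changed sign with TSLP were those of Tox2 (0.019 with limma on RPKM, 0.15 without length and GC trends, and from -0.51 to 0.13 with 1 library left out, 0.13 without TCR library 1), Cxcr5 (0.069 with limma) and Izumo1r (0.014 without length and GC trends, 0.47 for the other model). In lung only that of Izumo1r did, at -0.024 without control library 3, in a range up to 0.37 with 1 library left out. The causes were not tested.

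Same-numbered libraries did not deviate together (r -0.12 with TSLP, and 0.08, -0.15 and -0.04 in lung), so the numbers gave no sign of pairing. With so few libraries per group, these values cannot exclude it. A replicate block gave 5818 genes with TSLP, 7106 with the numbers crossed, and 121 in lung, with 0 members higher and 0 lower there (Bcl6 adjusted p = 0.103, Tox2 0.0830) and 2 follicular regulatory genes past the threshold with TSLP. Precision is limited by the 2 spleen libraries per group, the depth of control library 2 and control library 3, which stands apart, and Il21 in lung and Tox2 in spleen lie near detection.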
